A study of Mus musculus with 6 samples.

Results

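Fc receptors are the proteins through which cells take hold of the constant (Fc) end of an antibody. The genes described here are the 4 mouse receptors for IgG (Fcgr1, Fcgr3, Fcgr4 and Fcgr2b), the signalling chain Fcer1g and the neonatal Fc receptor Fcgrt. They are 6 of the 54532 genes listed in the RNA-Seq tables, chosen by name for their function, and each name matched 1 Ensembl identifier in GENCODE M21 (GRCm38). The study asked whether cells resembling cancer-associated adipocytes occur in the fat of obese mice, and compared the visceral (epididymis) fat of male C57BL/6J mice on 2 diets. ND-fed mice received a diet with 4.5% fat and HFD-fed mice the D12492 diet with 60% fat, from 4 weeks of age for 16 weeks. No mouse received a compound, and 3 libraries were made per diet (ND1 to ND3 and HFD1 to HFD3). Whole tissue was extracted, so every value is a mixture of adipocytes, vessels and immune cells. The labels do not say whether animals were pooled.

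Macrophages, neutrophils and other myeloid cells use activating Fc gamma receptors to bind antibody-coated material, engulf it and release inflammatory mediators. Fcgr1, Fcgr3 and Fcgr4 do not signal alone. They depend on the dimeric chain Fcer1g, which carries the immunoreceptor tyrosine-based activation motif (ITAM), and the phosphorylated ITAM recruits the kinase Syk. Fcgr2b has its own tail with the opposite element, the inhibitory motif (ITIM), which recruits the lipid phosphatase SHIP encoded by Inpp5d. Macrophages and B cells both carry Fcgr2b. Fcgrt stands apart from them, since it forms a heterodimer with beta-2-microglobulin inside cells and returns IgG and albumin from acidic endosomes to the blood.

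The coding stretches of these opposing motifs are shown because they set the activating chain against the inhibitory receptor. Both were read from GENCODE M21 transcripts of GRCm38, on the minus strand of chromosome 1, with the tyrosine codons in capitals. The Fcer1g stretch covers codons 65 to 79 of 86 within chr1:171229889-171230072, is broken by an intron, and was in 1 of 2 complete coding transcripts. The Fcgr2b stretch covers codons 317 to 322 of 340 at chr1:170961071-170961088 and was in 4 of 4.
Fcer1g ITAM: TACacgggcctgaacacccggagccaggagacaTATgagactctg
Fcgr2b ITIM: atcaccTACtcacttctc
The ITAM pattern was found in no other of the 6 genes. The short 6-codon ITIM pattern also matched elsewhere in Fcgr1, Fcgr4, Fcer1g and Fcgrt, so a match on its own names no motif.

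Fcgr2b (ENSMUSG00000026656, chr1:170958617-170976547, minus strand), Fcgr4 (ENSMUSG00000059089, chr1:171018920-171029761, plus strand), Fcgr3 (ENSMUSG00000059498, chr1:171051174-171064935, minus strand) and Fcer1g (ENSMUSG00000058715, chr1:171229572-171234365, minus strand) lie in this order in a cluster on chromosome 1. Fcgr1 (ENSMUSG00000015947, chr3:96282909-96293969, minus strand) and Fcgrt (ENSMUSG00000003420, chr7:45092990-45103851, minus strand) lie elsewhere. Fcgr3 and Fcgr2b are close relatives, with 87.5% identity over 785 aligned coding bases and a longest identical run of 129 bases. The other receptor pairs had 67.9% to 69.9% identity. Of the 50-base windows of the Fcgr3 transcripts 9.58% occur in Fcgr2b, and 2.54% of its 100-base windows. No such window of Fcgr1, Fcgr4, Fcer1g or Fcgrt occurs in another gene. Of the 50-base windows of the Fcgr2b transcripts 6.95% occur in another gene on either strand, most often in Fcgr3. Of its 100-base windows 4.3% do, most often in Cplx2. The read length and the treatment of shared reads are not given in the sources used here. Reads from these stretches may therefore have been counted for another gene. The split between Fcgr3 and Fcgr2b, and the level of Fcgr2b itself, are uncertain to that extent. Fcgr2b also shares 155 of its exon bases (2.68%) with the antisense gene Gm38204, whose reads cannot be told apart from it without strand.

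The count totals lay between 16996896 and 18859320 per library. After the removal of genes with too few counts, 15751 genes were tested, all 6 Fc genes among them. At an adjusted p under 0.05 by edgeR's quasi-likelihood test, 15.9% of all genes tested differed between the diets, 9.85% higher and 6.04% lower on HFD. The adipocyte marker Adipoq was abundant in every library, with 17917 to 65619 counts. ND3 stood apart by its epithelial markers, whose summed level was 223.5 CPM (read counts scaled to the library size, here with TMM factors) against 27.5 and 28.2 CPM in ND1 and ND2 and 21.0 to 30.9 CPM in the HFD libraries.

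Of the 6 genes, 4 were higher in the HFD libraries (Fcgr1, Fcgr3, Fcgr4 and Fcer1g) and 0 were lower, against 9.85% and 6.04% of all genes tested. The same 4 passed with DESeq2's Wald test, by which 20% of 18348 genes differed, and at an unadjusted p under 0.05 edgeR still found 0 of the 6 lower. All 3 activating receptors and their signalling chain rose, by 3.35-fold to 8.91-fold. The inhibitory receptor Fcgr2b and the neonatal receptor Fcgrt did not pass the test. These are whole-tissue levels, and more cells carrying a receptor cannot be told apart from more RNA per cell.

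**Figure D1:**
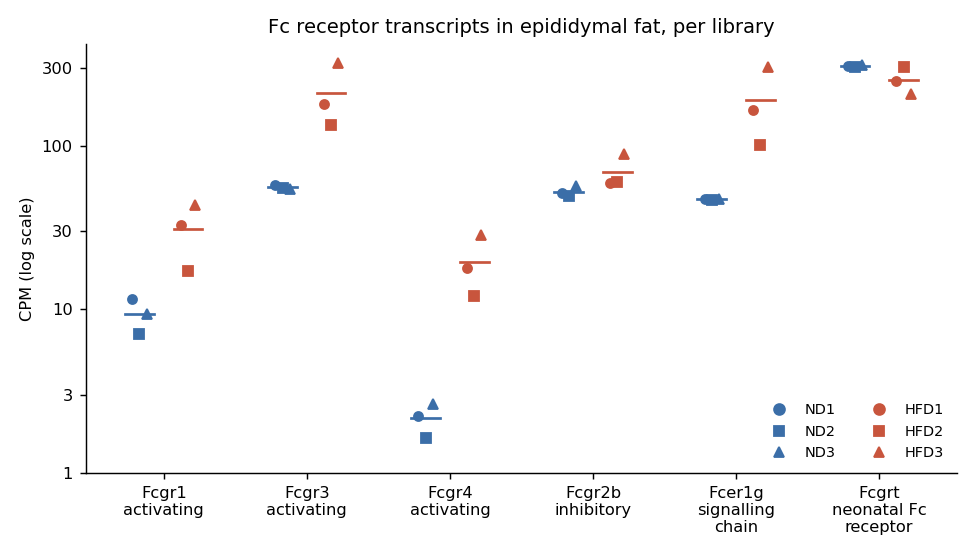
Level of each Fc gene in the 6 libraries, in CPM on a log scale, with ND in blue, HFD in red, a symbol per library and a line at the mean of each diet. HFD3 is the highest point for Fcgr1, Fcgr3, Fcgr4, Fcgr2b and Fcer1g, while the HFD points of Fcgrt reach into the ND range.

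Fcgr4, the receptor that binds mainly IgG2 subclasses on monocytes, macrophages and neutrophils, had the largest change of the 6. Its counts were 41 in ND1, 28 in ND2 and 53 in ND3, against 327 in HFD1, 199 in HFD2 and 491 in HFD3. In CPM the ND values were 2.21, 1.62 and 2.65 and the HFD values 17.9, 12.0 and 28.3, so the lowest HFD library lay well above the highest ND library. The log2 fold change was 3.16 with a standard error (SE) of 0.37 and an adjusted p of 0.00624. Fcgr4 also kept an adjusted p under 0.05 in each of the 6 fits that left out 1 library, where the log2 fold change ran from 2.77 to 3.41. It was the scarcest of the 6 transcripts in ND fat.

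Fcgr3, the low-affinity receptor that binds IgG in immune complexes, was the most abundant activating receptor on both diets. ND fat held 57.7, 54.9 and 54.0 CPM of it, and HFD fat 179, 133 and 321 CPM. The ND libraries were nearly equal, with a coefficient of variation of 3.47%, whereas the HFD libraries spread over 2.42-fold and none came near the ND level. The log2 fold change was 1.93 (SE 0.31, adjusted p = 0.0119). It remained between 1.47 and 2.17 when 1 library was left out, and the adjusted p rose to 0.0546 without ND1 and to 0.0575 without ND2.

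Fcgr1, the high-affinity receptor that also holds monomeric IgG, measured 11.5, 7.08 and 9.35 CPM on ND. On HFD it measured 32.8, 17.1 and 43.5 CPM, again with HFD2 lowest, HFD3 highest and no overlap with ND. Its log2 fold change was 1.74 (SE 0.35, adjusted p = 0.0208). The call was less firm than that of Fcgr4, because the adjusted p was 0.0598 without ND1, 0.0809 without ND2, 0.0681 without ND3 and 0.0835 without HFD1. The fold change itself stayed between 1.41 and 2.04 on the log2 scale.

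Fcer1g, the chain on which these receptors depend, had 47.5, 46.3 and 46.9 CPM on ND, the tightest group of any Fc gene with a coefficient of variation of 1.25%. On HFD it had 164, 101 and 302 CPM, every library above ND, and its coefficient of variation was 54.3%. The log2 fold change was 2.01 (SE 0.37, adjusted p = 0.0158), a 4.04-fold higher level. As with Fcgr1, the adjusted p passed 0.05 when ND1 (0.0674), ND2 (0.0701), ND3 (0.0573) or HFD1 (0.0560) was left out, and the log2 fold change stayed between 1.49 and 2.32.

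Fcgr2b, the only inhibitory receptor of the group, had 51.3, 49.1 and 56.3 CPM in ND fat, against 59.6, 60.2 and 88.7 CPM after HFD. HFD1 and HFD2 lay just above the highest ND library, and HFD3 lay clearly higher. All HFD values above all ND values is a pattern that 21.7% of all genes tested had. The log2 fold change of 0.41 (SE 0.18) did not pass the test (adjusted p = 0.148). It was 0.18 without HFD3 and 0.51 without HFD2, with adjusted p-values of 0.317 and 0.0865.

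Fcgrt, the heavy chain of the neonatal Fc receptor, was the most abundant of the 6 in ND fat at 308, 303 and 312 CPM. The HFD libraries had 249, 304 and 208 CPM, so HFD2 lay within the ND range and HFD1 and HFD3 lay below it. The log2 fold change of -0.28 (SE 0.17) did not pass the test (adjusted p = 0.287). For its partner B2m, beta-2-microglobulin, the log2 fold change was 0.21 (SE 0.24, adjusted p = 0.567). Fcgrt thus had the opposite order of HFD libraries to the activating receptors, with HFD2 highest and HFD3 lowest.

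**Figure D2:**
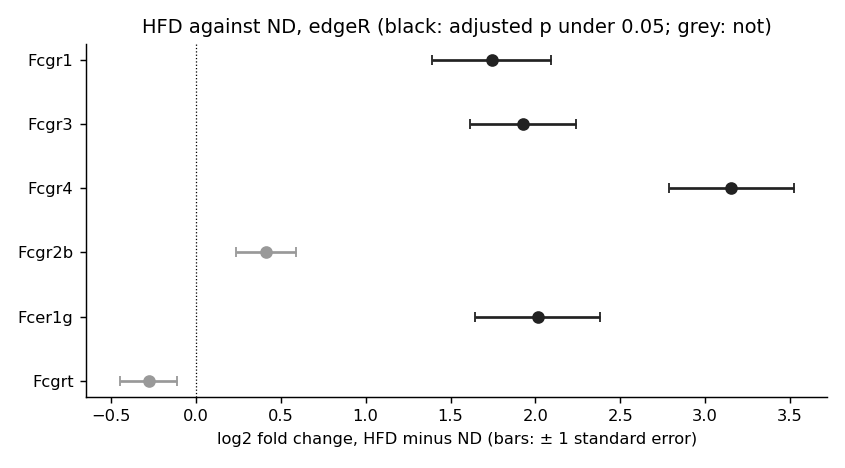
Log2 fold change of each Fc gene, HFD minus ND, from edgeR, with bars of 1 SE, black where the adjusted p was under 0.05 and grey where it was not. The activating receptors and Fcer1g lie between 1.74 and 3.16, Fcgr2b lies at 0.41 and Fcgrt at -0.28.

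To compare levels between genes of different length, the deposited FPKM values were used (fragments scaled to the length of the gene and the size of the library). In ND fat the order was Fcgrt (148 ± 1.37 FPKM, SD, n = 3), Fcer1g (54.4 ± 0.778), Fcgr3 (32.5 ± 1.32), Fcgr2b (9.15 ± 0.570), Fcgr1 (3.65 ± 0.869) and Fcgr4 (1.74 ± 0.402). No neighbours in this order overlapped in range. In HFD fat Fcer1g was highest (217 ± 118 FPKM, SD, n = 3), followed by Fcgr3 (122 ± 56.5) and Fcgrt (121 ± 23.3), and these neighbours overlapped. Below a clear gap came Fcgr4 (15.5 ± 6.56 FPKM), Fcgr1 (12.1 ± 5.14) and Fcgr2b (12.05 ± 2.86), whose ranges also overlapped. Fcgr2b stood above Fcgr1 and Fcgr4 in each ND library. Within the HFD libraries Fcgr4 stood above Fcgr1 in 3 of 3 and Fcgr1 above Fcgr2b in 2 of 3. This HFD order depends on the exon lengths, 5790 bases for Fcgr2b against 2589 for Fcgr1 and 1256 for Fcgr4. In CPM, which is not scaled to length, Fcgr2b lay above both in each HFD library. It had 59.6, 60.2 and 88.7 CPM, against 32.8, 17.1 and 43.5 for Fcgr1 and 17.9, 12.0 and 28.3 for Fcgr4.

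The balance of activating against inhibitory receptors was measured within each library as a ratio of FPKM, which needs no scaling between libraries. The summed level of Fcgr1, Fcgr3 and Fcgr4 was 4.45 times that of Fcgr2b in ND1, 4.20 times in ND2 and 3.79 times in ND3. In HFD1, HFD2 and HFD3 it was 12.6, 8.92 and 14.6 times that of Fcgr2b. Every HFD ratio lay above every ND ratio, and the difference of the log2 means was 1.51, a 2.85-fold higher ratio. It ran from 1.36 to 1.72 when 1 library was left out. The size of the ratios within a library depends on the exon lengths. In CPM, not scaled to length, the activating sum was 71.4, 63.6 and 66.0 on ND, against 51.3, 49.1 and 56.3 for Fcgr2b. On HFD the sum was 229, 162 and 393 CPM, against 59.6, 60.2 and 88.7 CPM.

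Each activating receptor showed the same order against Fcgr2b. The Fcgr4 ratio moved most, from 0.199, 0.153 and 0.217 in ND fat to 1.38, 0.917 and 1.47 after HFD, a log2 difference of 2.72. For Fcgr3 the ND ratios were 3.75, 3.73 and 3.20 and the HFD ratios 9.9996, 7.36 and 12.1, a log2 difference of 1.44. For Fcgr1 the ND ratios were 0.501, 0.323 and 0.371 and the HFD ratios 1.23, 0.635 and 1.10, a log2 difference of 1.28. All 4 of these ratios were higher in each HFD library than in any ND library. They share the denominator Fcgr2b, and Fcgr3 makes up most of the activating sum, so they are not separate results.

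The ratio of Fcer1g to the sum of the 4 receptors had ND values of 1.12, 1.201 and 1.15 and HFD values of 1.34, 1.12 and 1.44. HFD2 lay at the ND level and the diets overlapped, with a log2 difference of 0.16. This depended on the unit, since with counts in place of FPKM the difference was 0.47 without overlap, and with Fcgr3 left out of the sum it was 0.465 (exact p = 0.1 for both). In the two-sided exact permutation test, 3 libraries against 3 cannot give a p below 0.1, so no ratio could pass 0.05. The 4 ratios over Fcgr2b reached that smallest value (exact p = 0.1, adjusted p = 0.125 over the 5 ratios), and the Fcer1g ratio had an exact p of 0.4 (adjusted p = 0.4). With Fcgr3 left out of the sum, because of the sequence it shares with Fcgr2b, the activating ratio differed by 1.91 on the log2 scale (exact p = 0.1).

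**Figure D3:**
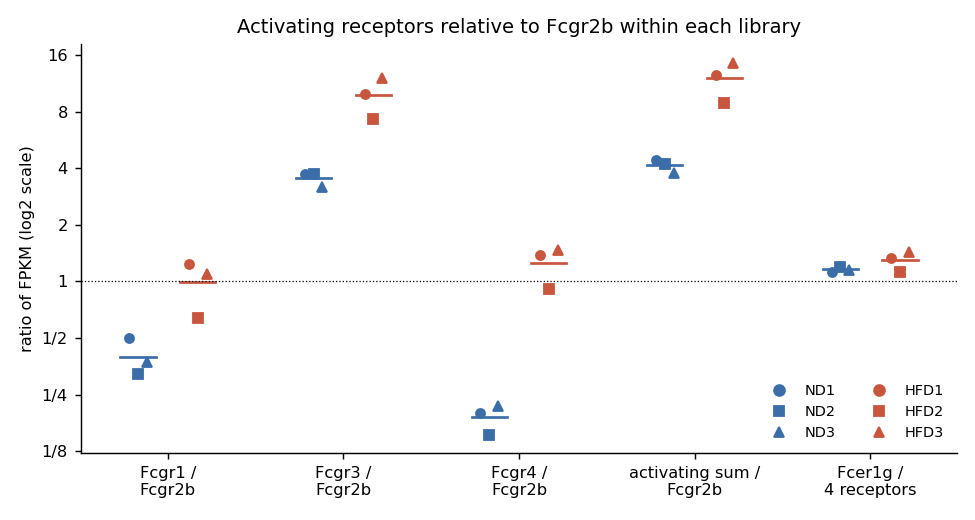
Ratios of FPKM within each library on a log2 axis, with ND in blue, HFD in red, a symbol per library and a line at the mean. The 4 ratios over Fcgr2b separate the diets in every library, and the ratio of Fcer1g to the 4 receptors, in FPKM, does not (log2 difference 0.16, against 0.47 in counts).

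The make-up of the receptor transcripts followed from these ratios. Fcgr3 supplied most of the summed FPKM of the 4 receptors, 69.1% ± 2.43 (SD, n = 3) on ND and 75.0% ± 1.97 on HFD. These shares also depend on the exon lengths. In CPM on ND, Fcgr2b (51.3, 49.1 and 56.3) lay near Fcgr3 (57.7, 54.9 and 54.0). The share of Fcgr2b was 18.4%, 19.2% and 20.9% in ND fat, against 7.34%, 10.1% and 6.39% in HFD fat. That of Fcgr4 was 3.65%, 2.93% and 4.53%, against 10.2%, 9.25% and 9.39%. Fcgr4 took a larger part in each HFD library and Fcgr2b a smaller part. Fcgr1 supplied 9.19%, 6.20% and 7.75% in ND fat and 9.06%, 6.40% and 7.02% in HFD fat, which overlap. The shares sum to the whole, so they are not separate results.

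**Figure D4:**
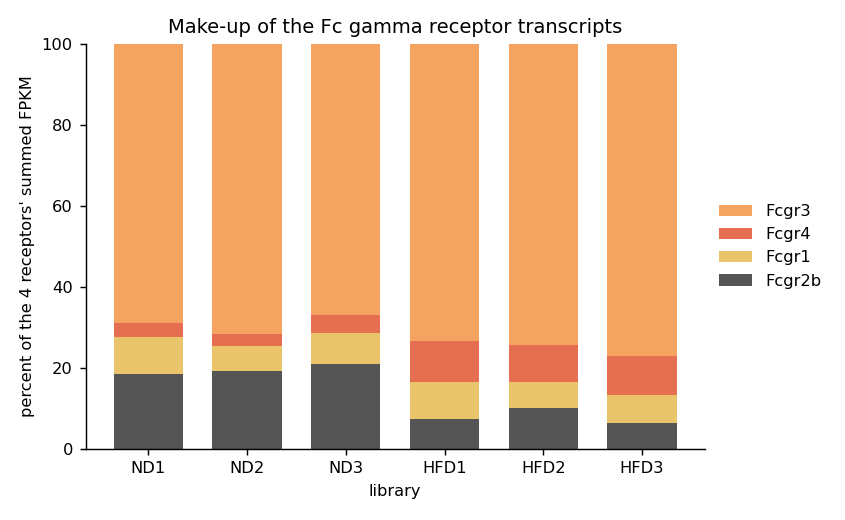
Share of each receptor in the summed FPKM of the 4 Fc gamma receptors, in percent, with a bar per library. The Fcgr2b part lies between 18.4% and 20.9% in the ND bars and between 6.39% and 10.1% in the HFD bars.

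The 6 genes differed in how their levels ran across the 6 libraries. As a description of likeness, the root mean square difference between centred log2 CPM profiles was smallest for Fcgr3 and Fcer1g (0.102) and largest for Fcgr4 and Fcgrt (1.78). Fcgr2b lay nearer to Fcgrt (0.480) than to its relative Fcgr3 (0.752). The log2 fold changes of Fcgr2b and Fcgrt were small but of opposite sign (0.41 and -0.28). HFD3 was the highest HFD library for Fcgr2b and the lowest for Fcgrt. The search for the nearest other genes covered 12523 that code for protein and whose mean log2 CPM exceeded 1. The nearest to Fcgr1 was Ikbke (0.0710), and the nearest to Fcgr3 was Bin2 (0.0506). Fmn1 was nearest to Fcgr4 (0.0917), and Pidd1 to Fcgr2b (0.0399). The nearest to Fcer1g were 2010111I01Rik (0.0185) and Runx1 (0.0437), and the nearest to Fcgrt was Brpf3 (0.0372). All 6 libraries contribute to these differences, so genes with a like diet effect come out as near.

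The DNA before the starts of the 3 activating receptors, which all passed the test, is shown beside that of Fcgr2b, which did not. RefSeq promoters of GRCm38.p6 were matched for all 6 genes, from 250 bases before to 50 bases after the start. Each was searched on both strands for GAGGAA, the core recognised by the myeloid factor Spi1, and for TTCNNNGAA, the element bound by Stat factors after interferon. The 120 bases before the start are printed 5′ to 3′ on the strand of the gene, with the matches in capitals.
Fcgr1 chr3:96293970-96294089, minus strand: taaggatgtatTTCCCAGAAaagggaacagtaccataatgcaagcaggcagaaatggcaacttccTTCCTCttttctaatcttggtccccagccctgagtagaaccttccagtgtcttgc
Fcgr3 chr1:171059395-171059514, minus strand: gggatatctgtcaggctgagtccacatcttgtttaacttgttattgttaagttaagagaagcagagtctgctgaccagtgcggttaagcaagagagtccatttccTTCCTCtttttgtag
Fcgr4 chr1:171018806-171018925, plus strand: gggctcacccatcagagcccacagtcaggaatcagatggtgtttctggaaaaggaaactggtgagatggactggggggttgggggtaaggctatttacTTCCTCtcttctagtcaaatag
Fcgr2b chr1:170976072-170976191, minus strand: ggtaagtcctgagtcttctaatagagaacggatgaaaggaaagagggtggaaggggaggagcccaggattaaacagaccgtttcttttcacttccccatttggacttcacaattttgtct

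All 3 activating receptors held GAGGAA, each time on the opposite strand as TTCCTC. It began at position -55 from the start in Fcgr1 and at -22 in Fcgr4, and for Fcgr3, which has 2 listed starts, at -15 or -6. The windows of Fcgr2b and Fcgrt did not hold these letters, and neither did that of Fcer1g, which also passed the test. Other forms of the Spi1 site were not searched, so these windows may hold them. GAGGAA was in 28.1% of 32544 promoters of the same length. TTCNNNGAA was in the Fcgr1 window only, at position -109, and in 8.33% of all promoters. The 2 motifs did not overlap each other. A match describes the letters and is no evidence of binding.

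Transcripts of antibody chains were read from the immunoglobulin constant genes, of which 10 of 13 were tested. These receptors bind IgG, whereas the list also holds light chains and chains of other antibody classes. Antibody protein in the tissue was not measured. Of the 10 genes tested 1 was higher on HFD and 0 lower, near the 9.85% and 6.04% of all genes tested. The called gene was Ighg2c, the IgG2c heavy chain of the C57BL/6 strain and a ligand of Fcgr1 and Fcgr4. It had ND counts of 46, 19 and 67 against HFD counts of 116, 149 and 261 (log2 fold change 2.12, SE 0.48, adjusted p = 0.0275). The adjusted p of Ighg2c was 0.0931 without ND1, 0.0751 without ND2, 0.0508 without ND3 and 0.0628 without HFD1. The IgM chain Ighm and the light chain Igkc, which are far more abundant, differed by 0.49 and 0.54 on the log2 scale and did not pass (adjusted p = 0.200 and 0.220). Ighg2b had ND counts of 10, 4 and 361 against HFD counts of 92, 51 and 52, so ND3 set its ND level. Its log2 fold change was -0.77 (adjusted p = 0.715). Without ND3, Ighg2b turned to 3.19 with an adjusted p of 0.0355 and was then the 1 immunoglobulin gene called higher. With the replicate block 2 immunoglobulin genes were called higher. Ighg3 had ND counts of 0, 74 and 110 against HFD counts of 40, 1 and 6, also with overlap. Ighe was at 0 in all 6 libraries. The IgG heavy chain genes are close relatives, so their reads may be split among them and these counts are uncertain.

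Of 12 genes for other Fc receptors, 7 had enough counts to be tested. By edgeR 0 of the 7 were higher and 1 was lower, against 9.85% and 6.04% of all genes tested. Their median log2 fold change was -0.02 (0.0074 over all genes tested). At an unadjusted p under 0.05 edgeR found 1 higher, DESeq2 called 2 higher and 2 lower, and limma-voom 0 higher and 1 lower. Without HFD2, edgeR called 2 higher. The lower gene was Fcamr, a receptor for IgA and IgM, with ND counts of 47, 35 and 50 against HFD counts of 3, 5 and 2 (log2 fold change -3.57, SE 0.44, adjusted p = 0.00651). Its HFD counts are few, so the size of this change is imprecise. Fcer1a, the IgE-binding chain that uses Fcer1g in mast cells, had ND counts of 10, 3 and 6 against HFD counts of 18, 10 and 61, which did not overlap but missed the threshold (log2 fold change 2.30, adjusted p = 0.0856). It is named after its values were seen.

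Other receptors that signal through Fcer1g were also measured. Of the 5 tested, 3 were higher and 0 lower, against 9.85% and 6.04% of all genes tested. Clec4d, a lectin for mycobacterial and fungal glycolipids, had ND counts of 21, 24 and 25 against HFD counts of 508, 190 and 2325, all far above ND and with HFD3 highest (log2 fold change 5.51, adjusted p = 0.0155). Clec4e, its relative that binds the same kind of ligands, stood at 2.60 on that scale (adjusted p = 0.0423). Pira2 had 2.42 (adjusted p = 0.0182), but belongs to a multigene family whose copies may share reads. The count of 3 fell to 0 without ND1, ND2 or ND3, to 1 without HFD1 and to 1 in limma-voom, so it depends on the libraries included. Among 8 other adaptor genes, most of them with an ITAM, 1 was higher and 0 lower, against 9.85% and 6.04% of all genes tested. The higher gene was Tyrobp (DAP12), the other ITAM chain of myeloid cells. It had ND counts of 1164, 903 and 1220 against HFD counts of 5513, 3122 and 10191 (log2 fold change 2.61, SE 0.40, adjusted p = 0.0104). The adjusted p of Tyrobp was 0.0521 without ND1 and 0.0556 without ND2.

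Downstream of the ITAM, 18 of the 27 activating signalling genes tested were higher on HFD and 2 were lower. The shares over all genes tested were 9.85% and 6.04%. The median log2 fold change of the 27 was 1.37. Syk, the kinase that docks on the phosphorylated ITAM, had ND counts of 688, 630 and 849 against HFD counts of 3704, 2006 and 6170, without overlap (log2 fold change 2.55, SE 0.37, adjusted p = 0.00958). The adaptors Lat2 and Blnk had still larger differences of 3.88 (adjusted p = 0.00832) and 3.32 (adjusted p = 0.00805). Malt1, the paracaspase on the path to NF-kB, had 1.202 (adjusted p = 0.00651). The lower genes were Pik3r1, a regulatory subunit of phosphoinositide kinase (-1.51, adjusted p = 0.0152), and Sh2b2, an adaptor of the insulin receptor (-0.94, adjusted p = 0.0129). Both also serve insulin signalling in adipocytes.

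A list of 10 inhibitory signalling genes, not limited to those acting at the ITIM, had a median log2 fold change of 1.10. Of them 7 were higher and 0 lower, also in DESeq2 and at an unadjusted p under 0.05. Over all genes tested the shares were 9.85% and 6.04%. Inpp5d, the phosphatase SHIP that docks on the ITIM, had ND counts of 445, 376 and 456 against HFD counts of 1230, 760 and 1737, and the diets did not overlap (log2 fold change 1.63, SE 0.27, adjusted p = 0.0121). Dok1, an adaptor that dampens Ras signalling, had 1.61 (adjusted p = 0.00943), and Ptpn6, the phosphatase SHP-1, had 1.98 (adjusted p = 0.0125). Over 25 genes of actin remodelling at the phagocytic cup the median log2 fold change was 0.84. Of them 12 were higher and 0 lower, against 9.85% and 6.04% of all genes tested. They included Dock2, a Rac activator of leukocytes (2.34, adjusted p = 0.00791), Was, which drives actin branching (1.81, adjusted p = 0.0149), and Myo1g (1.86, adjusted p = 0.0160). Over the 3 lists together, 37 genes were higher, and the number was 9 without ND1, 8 without ND2, 14 without ND3 and 10 without HFD1. The 7 inhibitory signalling calls became 1 without ND1, ND2 or HFD1 and 3 without ND3. The 12 phagocytic cup calls became 1 without ND1, ND2, ND3 or HFD1. Of 28 called genes outside the 6 Fc genes that were followed singly, 8 kept their call whichever library was left out (Adgre1, Blnk, Cd68, Dock2, Dok1, Fcamr, Lat2 and Malt1), and none of the 28 changed direction. The calls lost numbered 19 without ND1, 18 without ND2, 9 without ND3, 14 without HFD1, 2 without HFD3 and 0 without HFD2.

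**Figure D5:**
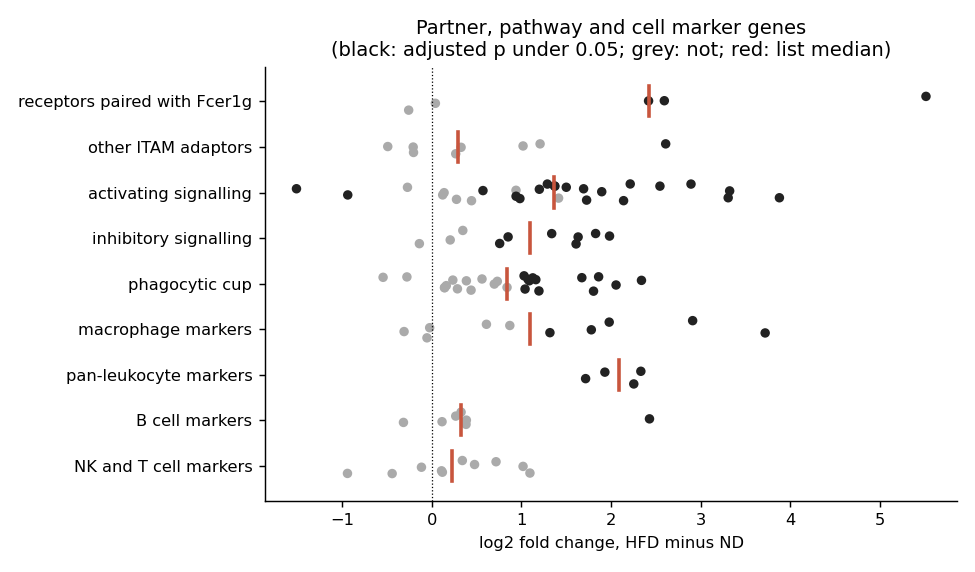
Log2 fold change (HFD minus ND, edgeR) of the genes in 9 lists, with a point per tested gene, black where the adjusted p was under 0.05, grey where it was not, and a red bar at the list median. The activating and inhibitory signalling lists have medians of 1.37 and 1.10, and the B cell and NK and T cell lists lie near 0 with 1 black point between them.

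Markers of cell types were read beside the Fc genes, and only some of them differed between the diets. Over all genes tested 9.85% were higher and 6.04% lower. Of 10 macrophage markers 5 were higher and 0 lower, with a median log2 fold change of 1.10 and a summed level of 1409 to 1508 CPM on ND and 3092 to 7204 CPM on HFD. They were Adgre1 (2.91, adjusted p = 0.00583), Cd68 (3.72, adjusted p = 0.00642), Csf1r (1.32, adjusted p = 0.0114), Itgam and Lyz2, whereas Mertk had -0.02, Cd163 -0.05 and Cx3cr1 -0.31. All 4 pan-leukocyte markers were higher, with a median of 2.09 and sums of 199 to 228 CPM on ND and 547 to 1414 CPM on HFD. The 5 macrophage calls were 2 without ND1, ND2 or HFD1, 3 without ND3 and 7 without HFD2. Of the 4 pan-leukocyte calls 0 were left without ND1 or ND2 and 3 without ND3 or HFD1. In both sums HFD3 was highest and HFD2 lowest, the order of Fcgr1, Fcgr3, Fcgr4 and Fcer1g. Lyz2 supplied most of the macrophage sum, with 870 to 943 CPM on ND and 2021 to 4846 CPM on HFD. The part of macrophage and leukocyte markers in the Fc gene results was not tested.

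Markers of other cells that carry Fc receptors were counted in the same way, beside the 9.85% higher and 6.04% lower of all genes tested. Of the neutrophil markers 2 of 4 tested were higher (S100a8 and Csf3r) and 1 was lower (Camp), at a summed 6.45 to 10.3 CPM on ND and 13.9 to 19.9 CPM on HFD, and the defining marker Ly6g had 1 count in all libraries together. Of the neutrophil calls, 0 higher were left without ND1, ND2, ND3 or HFD1 and with the replicate block, 1 without HFD3 and 1 in limma-voom, and 0 lower without ND1, ND2 or HFD1. For B cells, which carry Fcgr2b, 1 of 7 markers was higher, Cd22 (2.43, adjusted p = 0.0257), against 9.85% of all genes tested. The summed B cell level was 7.25 to 23.7 CPM on ND and 18.7 to 32.5 CPM on HFD. The B cell call was lost without ND1, ND3 or HFD1 and with the replicate block. Of 7 mast cell markers 0 passed by edgeR or limma-voom, whereas 4 were higher at an unadjusted p under 0.05 and in DESeq2, and their summed level was highest in HFD3 (203 CPM, against 37.3 to 73.2 CPM on ND). Of 10 NK and T cell markers 0 passed by edgeR, DESeq2 or limma-voom, nor at an unadjusted p under 0.05, and of 6 dendritic cell markers 0 passed by any of these tools, with 2 lower unadjusted. Without HFD2, edgeR called 3 mast cell markers higher, and 1 with the replicate block. By edgeR 0 of 8 adipocyte markers (median log2 fold change -0.45) and 0 of 7 endothelial markers (-0.23) passed, with 1 lower in each list unadjusted and in DESeq2, and HFD3 had the lowest sum of both. Without HFD2, edgeR called 2 adipocyte markers and 1 endothelial marker lower. The summed endothelial level was 1286 to 1577 CPM on ND and 740 to 1506 CPM on HFD. Fcgrt, which endothelial cells carry, was also lowest in HFD3. Its highest HFD library was HFD2, as for the adipocyte sum, whereas the endothelial sum was highest in HFD1. The part of either cell type in the Fcgrt level was not tested.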

How the data were processed

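Total RNA of epididymal fat was extracted with TRIzol, and libraries were made with a NEBNext Ultra kit whose strand setting is not stated. The paper names TopHat and Cufflinks on GRCm38, whereas the submitters' processing notes name fastp, HISAT2 2.0.5 and featureCounts 1.5.0-p3 and a human build, although the identifiers are of mouse genes. Raw, unnormalized counts for each gene were deposited. A second deposited table holds the same genes as FPKM. Groups follow the diet in the labels. Counts were tested with edgeR 4.0.16 (R 4.3.3; TMM, filterByExpr, glmQLFit with robust=TRUE, Benjamini-Hochberg over all 15751 genes, threshold 0.05). SE was derived from the F statistic. Ratios of FPKM were compared by a two-sided exact permutation test. The p-values measure the spread between these 3 libraries per diet, and counting error is included in it. The fit was repeated with limma-voom (limma 3.58.1), DESeq2 1.42.0, DESeq2 size factors, library size only, no filter, at least 10 counts in 3 libraries, robust=FALSE, a replicate block, each library left out, and limma on log2(FPKM + 1) or log2(FPKM + 0.1) for genes of at least 0.5 FPKM in 3 libraries, or without that filter.

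All 6 Fc genes are named. Of each other list at most the 3 genes with the lowest adjusted p per direction are named, with defining markers and the genes nearest to each Fc gene in profile. Genes named besides (Itgam, Lyz2, Mertk, Cd163, Cx3cr1, Ly6g, Fcer1a and Ighe) were chosen after their values were seen. The Fc genes and the lists were chosen with earlier results of these data known, and some results are not reported here. Same-numbered libraries come from different mice, and their deviations did not correlate (-0.0945, -0.0587 and -0.00245).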

Additional observations from a re-analysis of the deposited data

How the results depend on the processing

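Leaving out 1 library gave 474 to 3940 called genes, and 910 were called on unfiltered log2(FPKM + 1), against 2504. Fc genes higher on HFD numbered 1 to 4 when 1 library was left out and 1 on unfiltered FPKM (Fcgr4), where the adjusted p was 0.0913 for Fcgr1, 0.0566 for Fcgr3 and 0.0744 for Fcer1g. The number lower was 0 throughout, and all other settings kept the 4 calls, including DESeq2 and the replicate block (no pairing was found). Signalling and phagocytic cup genes higher on HFD numbered 8 to 45 with 1 library left out, 22 on log2(FPKM + 0.1) and 6 unfiltered, against 37. Those lower numbered 0 to 2 and 1, against 2. The cause of these shifts was not tested.

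The log2 differences of the ratios over Fcgr2b ran from 1.36 to 1.72 (activating sum), 1.09 to 1.57 (Fcgr1), 1.27 to 1.63 (Fcgr3) and 2.57 to 2.93 (Fcgr4) with 1 library left out, and that of Fcer1g over the receptors from 0.08 to 0.26. In counts in place of FPKM the last was 0.47 without overlap (exact p = 0.1). Permuting within pairs as a replicate block, the smallest p is 0.25, which 4 ratios reached.

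The sign of Ighg2b, -0.77 in the main test, turned to 1.29 in limma-voom, 1.35 with the replicate block, 3.19 without ND3, 0.12 on log2(FPKM + 1) with or without the filter and 0.98 on log2(FPKM + 0.1). That of the NK cell receptor Ncr1 turned to 0.060 without HFD3. With 1 library left out their log2 fold changes ran from -1.33 to 3.19 and from -0.72 to 0.060. Neither gene passed the test in edgeR with all libraries.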
